A study of Rattus norvegicus with 3 samples.

Results

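The Ccnd1 locus was described here as 1 Mb of rat chromosome 1 (204950000 to 205950000, assembly rn4), centred close to a region that the study's annotation assigns to Ccnd1, the cyclin D1 gene. The window was chosen by the position of that region, which had itself been selected on its score in one of the lists below, so every count and score of the locus is given as a description and none was tested. Its members are the 50 deposited regions that overlap the window, out of 95306 in the whole series. They divide into 20 of 35998 regions listed for MLP vs. C, 23 of 33730 listed for MLP vs. MLP-F and 7 of 25578 listed for MLP-F vs. C.

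Cyclin D1 is the regulatory partner of the kinases CDK4 and CDK6. The active kinase phosphorylates the retinoblastoma protein, which then releases E2F transcription factors and lets a cell pass from G1 into S phase. In rodent liver the gene is known for its induction when hepatocytes re-enter the cell cycle, as after partial hepatectomy. Methyl groups on CpG sites are a chromatin mark that, depending on where they lie, can accompany silencing of a promoter or fill the body of an active gene.

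Livers came from male Wistar rats on postnatal day 1, whose dams ate a low protein diet (MLP), the same diet with added folate (MLP-F) or a normal diet (C). Methylated fragments were captured with a methyl-CpG binding domain (MBD) protein and sequenced as 1 library per diet, made from pooled DNA of 6 animals by the labels, while the study's text gives another number. The pups of a diet came from 1 litter, so the diets have no replicate check, and diet, litter, pool and library cannot be told apart. Each list gives regions that MACS called as enriched in its first library over its second, with a score equal to 10 times the −log10 of the MACS p. The lowest score in each list is 50. The lists run down to a p cut-off and hold many regions that did not pass the false discovery rate the study set for its annotated regions, so being listed is not being past that rate. The Ccnd1 region, among the 1183 annotated MLP vs. C regions, stood at place 7132 of 35998 by score. Many regions outside the annotated set thus scored higher, and a high score is not being past that rate either. The lists give no reads, fold or depth, and by the study's own account MLP was sequenced most deeply and C least. The part that depth plays in the scores was not tested. Whole liver was used, so a difference in methylation and a difference in the mix of cell types cannot be told apart.

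The region assigned to Ccnd1 was listed as higher in the MLP library than in the C library, and as higher in the MLP library than in the MLP-F library. It is among the 1183 regions the study annotated for MLP vs. C. It is not among the 42 of the annotation for MLP vs. MLP-F, for which the study's text gives another number. It spans 807 bp (chromosome 1, 205462409 to 205463215), and the annotation places it upstream of the gene and names no repeat for it. Its score was 124 in MLP vs. C and 185 in MLP vs. MLP-F. No MLP-F vs. C region overlapped it, and only 1.27% of all MLP vs. MLP-F regions overlapped one. Its absence from that list does not show that MLP-F and C were equal there. Scores can be read only within a list, and by place in its own list the region stood at 7132 of 35998, within the top 19.8%, against C, and at 4219 of 33730, within the top 12.5%, against MLP-F. Among the regions of the window it ranked 2nd by score for MLP vs. C and 3rd for MLP vs. MLP-F. By score it was one of the higher regions of this stretch in both lists that have MLP as their first library, although many regions elsewhere scored higher in each. The study had selected it from the MLP vs. C list and the window was set around it, so this rank is not read as a result. The MLP vs. MLP-F list shares the MLP library, so the rank there is not independent.

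The nearest neighbour of the Ccnd1 region was in the MLP vs. MLP-F list. A region of 387 bp (205458251 to 205458637) with a score of 168, within the top 14.9% of that list, ended 3771 bp before it and overlapped no MLP vs. C region. The pair was thus listed together against MLP-F, and only its annotated member was listed against C. On the other side a region of 1205 bp (205475172 to 205476376) lay 12.0 kb away in the MLP vs. C list, with a score of 54.1, close to the lowest in the list. Within 100 kb of the centre of the Ccnd1 region, by the regions' own centres, there were 3 MLP vs. C regions, 3 MLP vs. MLP-F regions and 0 MLP-F vs. C regions, each count of the MLP lists including the Ccnd1 region itself.

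**Figure D1:**
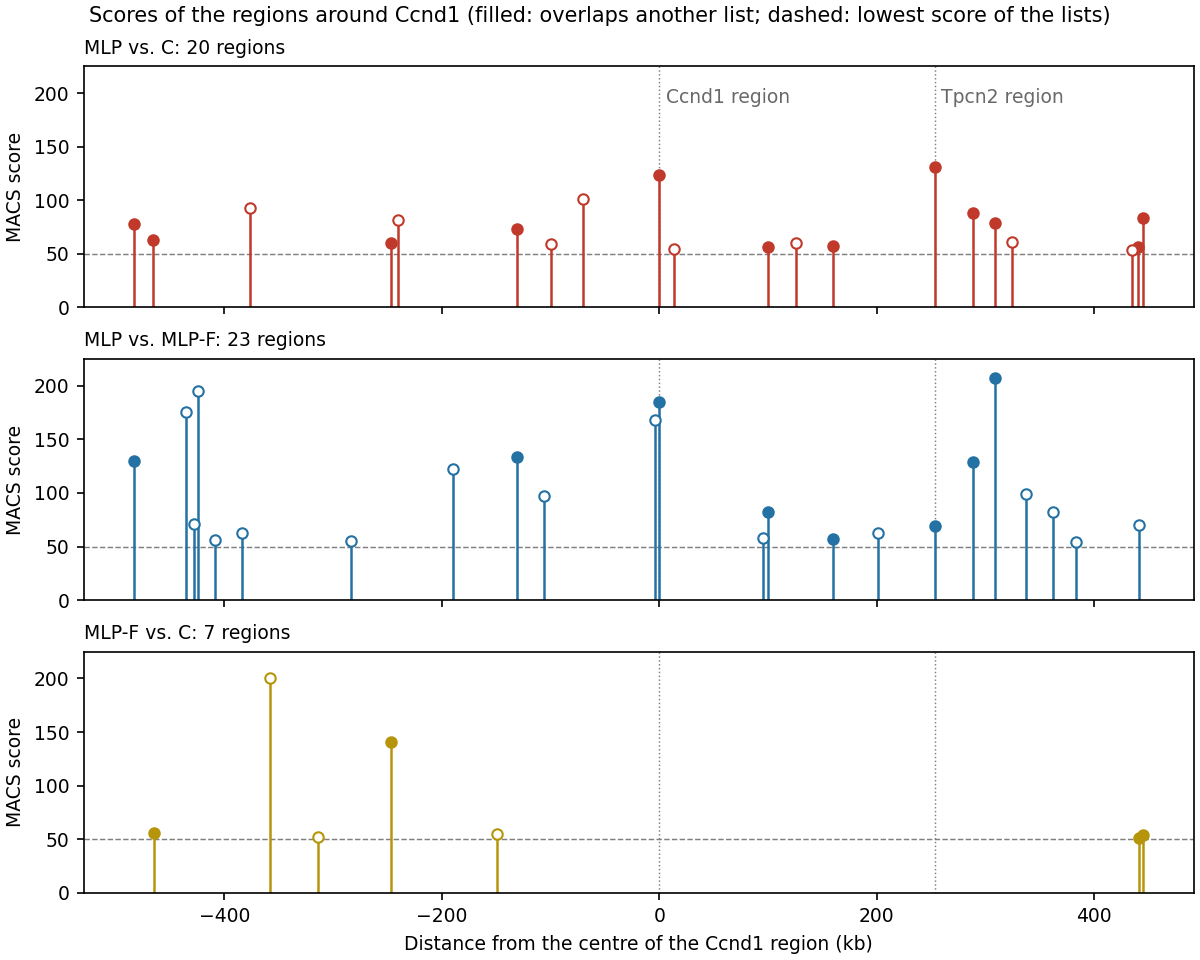
MACS score of every region of the window (vertical axis, 1 panel per list) against the distance of its centre from the centre of the Ccnd1 region in kb (horizontal axis), with filled points for regions that overlap a region of another list and open points for the others. The Ccnd1 region reached 124 in the MLP vs. C panel and 185 in the MLP vs. MLP-F panel, and the MLP-F vs. C panel is empty around both it and the Tpcn2 region.

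Tpcn2 encodes an ion channel of lysosomes and late endosomes that is known for releasing calcium from these acidic stores. The annotation places a second region of the window in an intron of this gene (205715185 to 205716177, 993 bp) and names an ID element, a short interspersed repeat of rodents, as the nearest repeat. It lay 252 kb beyond the Ccnd1 region, with 4 MLP vs. C regions, 4 MLP vs. MLP-F regions and 0 MLP-F vs. C regions between them. With a score of 131 it was the highest of the 20 MLP vs. C regions of the window, within the top 17.7% of the list. In the MLP vs. MLP-F list it scored 68.9, which put it at the 16th place of 23 in the window and only within the top 65.2% of the list. The Ccnd1 and Tpcn2 regions thus scored 124 and 131 against C, and 185 and 68.9 against MLP-F. Both are named here through the study's selection from the MLP vs. C list, so their closeness in that list is not read as a result. No gene was assigned to any other region of the window, because the annotation covers only 1183 regions of the MLP vs. C list, 2 of them here, and 42 regions of the MLP vs. MLP-F list, 0 of them here.

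Of the 20 MLP vs. C regions, the third with a score of at least 100 lay 70.6 kb before the Ccnd1 region (205391739 to 205392767, score 101) and was in neither other list. These 3 regions are 15.0% of the 20 (95% Wilson interval 5.24 to 36.0%, for counting error only), and 31.1% of all MLP vs. C regions scored that high. The next scores were 93.1 at 205085779 to 205086677, also without an overlap in another list, and 88.2 at 205750429 to 205750902. The 20 scores ran down to 53.2, with a median of 67.8 against 77.4 for the whole list. Most of the locus in this list was therefore made of regions not far above the lowest score, with the Tpcn2 and Ccnd1 regions at its upper end. Region lengths were between 355 and 1214 bp, with a median of 681 bp beside 674 bp for the list.

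Against MLP-F the strongest regions of the locus lay at some distance from Ccnd1 as well as beside it. The leading one of the 23 had a score of 208 (205771619 to 205772832, 1214 bp, within the top 9.79% of the list) and lay 309 kb beyond the Ccnd1 region, where the MLP vs. C list gave the same 1214 bp a score of 79.2. The second scored 195 (205038854 to 205039338) and the fourth 175 (205027169 to 205027674). Both belonged to a run of 5 MLP vs. MLP-F regions, each at most 25 kb from the next, that covered 51.6 kb between 205027169 and 205078812, with scores of 56.4 or more. Nothing listed for MLP vs. C or for MLP-F vs. C overlapped any of the 5. Of all MLP vs. MLP-F regions, 42.1% overlapped an MLP vs. C region and 1.27% an MLP-F vs. C region. The run was picked with its values in view. In all, 9 of the 23 regions scored at least 100 (39.1%, Wilson interval 22.2 to 59.2%), beside 36.8% of the whole list, and the median score of the 23, 82.6, was close to the 81.8 of the list. The regions lay on both sides of the Ccnd1 region, with 11 before it and 11 after it.

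The MLP-F vs. C list was sparse around Ccnd1. Its 7 regions comprised 5 before the Ccnd1 region and 2 near the far end of the window, and the stretch between them was empty for 589 kb (205314560 to 205903067). Over the same stretch 13 MLP vs. C and 14 MLP vs. MLP-F regions were listed, among them those of Ccnd1 and Tpcn2. Of the 24659 gaps between neighbouring regions of this list on the chromosomes, 679 (2.75%) were longer. The empty stretch was the longest of the 6 gaps in the window, and a long gap spans more positions than a short one. The share of gaps therefore does not say how rare such a stretch is around a given gene. By count, 43.3% of the windows compared below held fewer MLP-F vs. C regions. The 2 highest scores of this list in the window stood 358 and 247 kb before the Ccnd1 region. The first scored 200 (205104259 to 205104988), within the top 2.34% of the list and the highest place that any region of the window held in its own list, and it overlapped nothing in the other lists. The second scored 140 (205215404 to 205216115, within the top 6.81%). The other 5 had scores between 50.9 and 56.2, and 2 of 7 regions with a score of at least 100 compare with 19.1% of the whole list.

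Regions of the 3 lists that overlap by at least 1 bp were merged, which gave 38 loci in the window. Of these, 12 were held by 2 lists, 26 by 1 list and 0 by all 3, where 0.553% of the 72909 loci of the series were held by all 3. The lists share libraries in pairs, so their overlaps are described and not tested. In 8 loci an MLP vs. C region was also an MLP vs. MLP-F region, which is 40.0% of the 20 MLP vs. C regions (Wilson interval 21.9 to 61.3%) beside 39.4% of those in the series. They are 34.8% of the 23 MLP vs. MLP-F regions, beside 42.1%. In 4 loci an MLP vs. C region overlapped an MLP-F vs. C region, which is 20.0% of the 20 (8.07 to 41.6%) beside 22.6%, and 57.1% of the 7 MLP-F vs. C regions (25 to 84.2%) beside 31.8%. The shares of MLP vs. C regions were thus close to those of the series. A further 15 loci were in the MLP vs. MLP-F list alone (39.5%, 25.6 to 55.3%, beside 26.8% of the loci of the series), 8 in the MLP vs. C list alone (21.1% beside 19.3%) and 3 in the MLP-F vs. C list alone (7.89% beside 23.9%).

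Every one of the 8 regions held by both MLP lists had the same start and end in each, as did all 14194 such overlaps of the series, whereas none of the 4 overlaps with the MLP-F vs. C list had. Being listed against both C and MLP-F therefore means that 1 stretch of the MLP library passed against each. At the Ccnd1 region, at those 483 and 131 kb before it and at those 100, 288 and 309 kb beyond it, the place in the list was higher against MLP-F than against C. The region at 205331209 to 205331627, for example, scored 72.7 in MLP vs. C, within the top 55.5%, and 133 in MLP vs. MLP-F, within the top 22.7%. The order was the other way round at the Tpcn2 region, as given above. It was also the other way round at 205622882 to 205623540, within the top 82.3% against C and the top 84.4% against MLP-F. Both scores there were close to the lowest of the lists, at 57.1 in MLP vs. C and 56.9 in MLP vs. MLP-F. How often shared regions of the series stood higher against MLP-F is not given here, so these orders are not read as a trait of the locus. Among the 4 loci in both lists set against C, the one 247 kb before the Ccnd1 region was within the top 75.4% in MLP vs. C (score 60.5) and the top 6.81% in MLP-F vs. C (score 140), and the regions shared 638 bp.

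**Figure D2:**
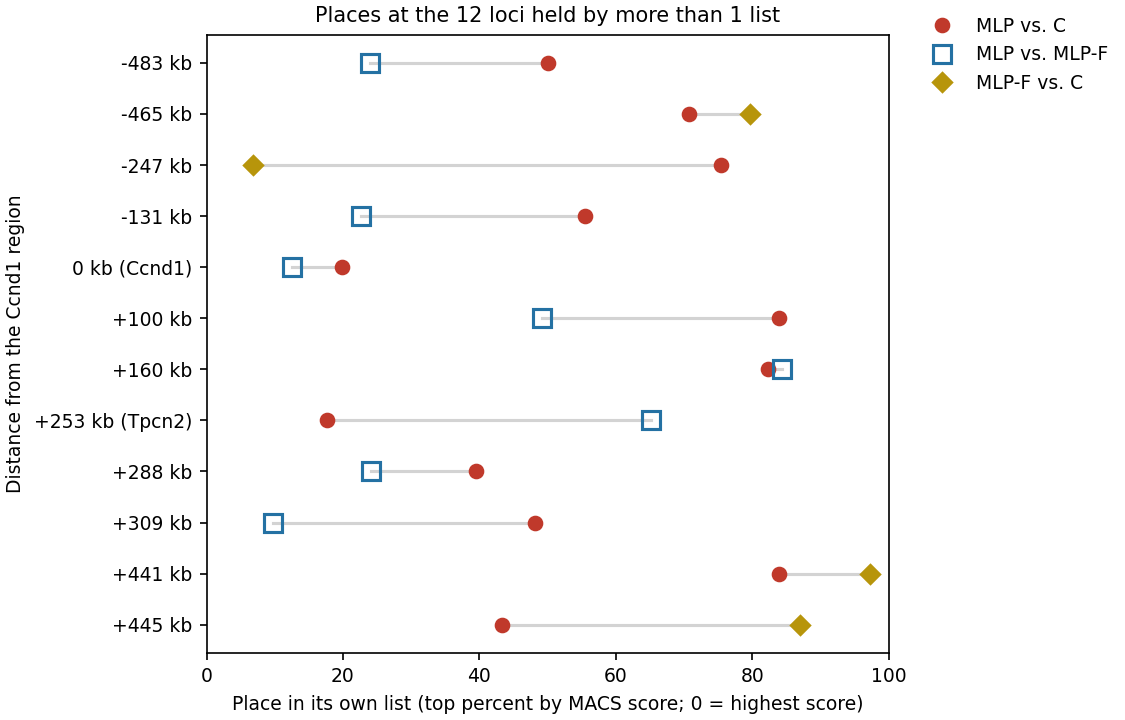
Place in its own list, as the top percent by MACS score with the highest scores at 0 (horizontal axis), of each of the 12 loci held by 2 lists, ordered down the vertical axis by distance from the Ccnd1 region in kb, with a symbol for each list and a grey line joining the places of a locus. The Ccnd1 region is within the top 19.8% against C and the top 12.5% against MLP-F, and the Tpcn2 region within the top 17.7% against C and the top 65.2% against MLP-F.

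At the far end of the window, 6 regions from all 3 lists lay within 10.7 kb (205897538 to 205908212), with scores between 50.9 and 83.9. An MLP vs. C region (205903068 to 205903520, score 56.3) and an MLP-F vs. C region (score 50.9) began at the same base, and an MLP vs. MLP-F region with a score of 70.0 began 174 bp after the end of the first and 134 bp after the end of the second. The lists thus met here without a locus held by all 3. The last region inside the window was at 205907721 to 205908107 in MLP vs. C (score 83.9), and the first outside it, at 206131866 to 206133196, scored 76.6 in MLP vs. C and 63.3 in MLP vs. MLP-F. For MLP-F vs. C the last inside scored 53.8 and the first outside, at 205984575 to 205985313, scored 70.0. On the other border the first region inside, at 204979736 to 204980090, scored 77.4 in MLP vs. C and 129 in MLP vs. MLP-F, and the last outside had scores of 51.9 in MLP vs. C (204916004 to 204916541) and 66.7 in MLP vs. MLP-F (204913382 to 204913753). For MLP-F vs. C the first inside scored 56.2 and the last outside 72.4.

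The window was set beside all 2690 whole windows of 1 Mb on the chromosomes, counted in step with it. It held 20 MLP vs. C regions, against a median of 11 per window, and 78.3% of windows held fewer. For MLP vs. MLP-F its 23 regions compared with a median of 10, and 89.4% of windows held fewer. For MLP-F vs. C its 7 regions compared with a median of 8, and 43.3% held fewer. Counted by regions with a score of at least 100 alone, 38.4% of windows held fewer in the MLP vs. C list, 89.4% in the MLP vs. MLP-F list and 55.4% in the MLP-F vs. C list. The count of the locus was thus above the middle of the series for MLP vs. MLP-F at either score, while for MLP vs. C it was above the middle only with the lower scores included. The windows on either side held 15 and 17 MLP vs. C regions, 22 and 15 MLP vs. MLP-F regions, and 8 and 13 MLP-F vs. C regions. Windows over unsequenced gaps of the assembly were not removed.

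**Figure D3:**
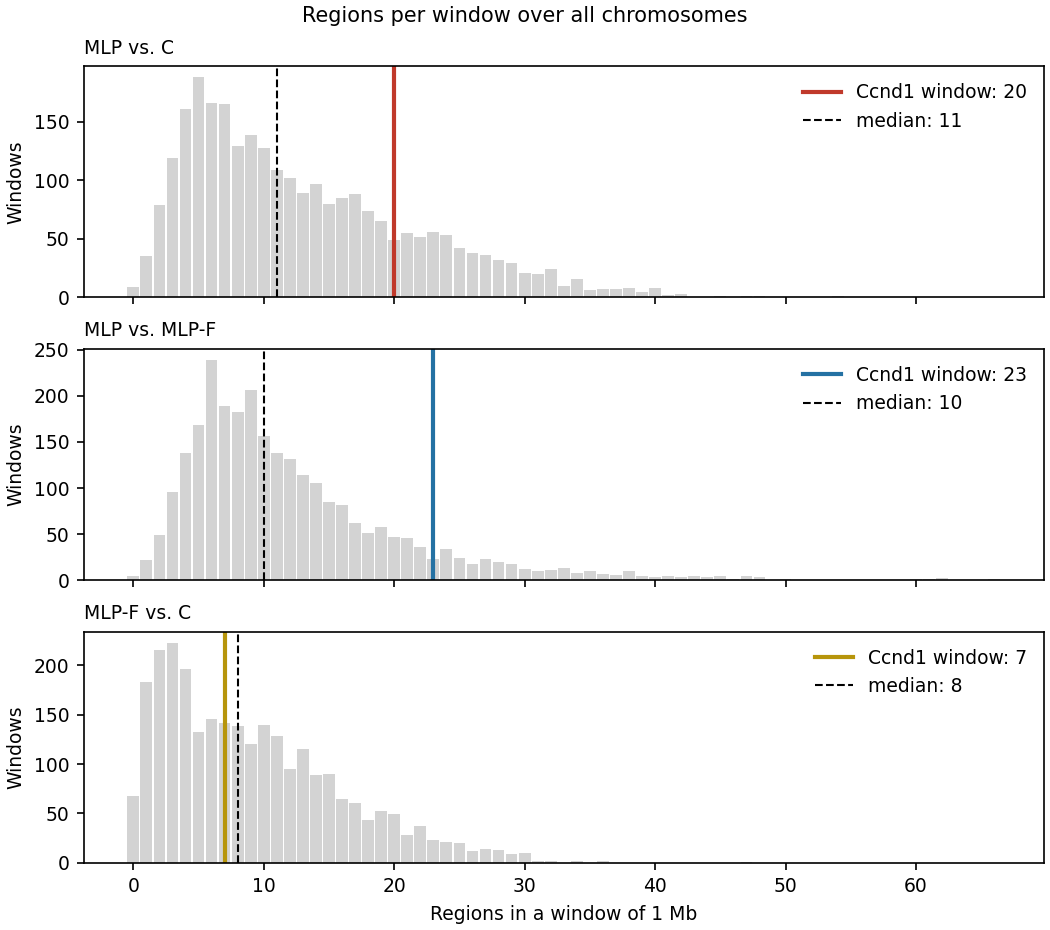
Number of windows of 1 Mb (vertical axis) by the number of regions they hold (horizontal axis), in 1 panel per list, with a coloured line at the Ccnd1 window and a dashed line at the median. The Ccnd1 window holds 20, 23 and 7 regions, and the medians are 11, 10 and 8.

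The scores of the locus were set beside those of the lists in the plot of cumulative distributions. The MLP vs. C regions lay to the left of their list at nearly every score. The MLP vs. MLP-F regions followed their list closely. In the MLP-F vs. C list the median score of the window was 54.5 and that of the list 69.4, while the 2 highest regions of the window reached the upper tail of the list. None of the 50 regions came near the highest scores of the series, which reach 3100.

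**Figure D4:**
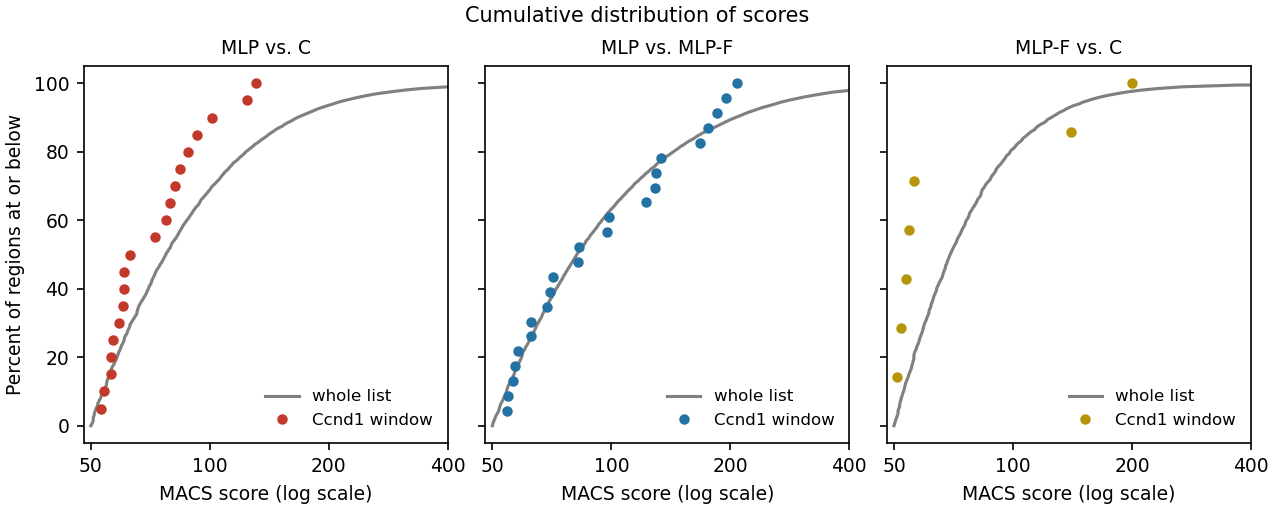
Percent of regions at or below each score (vertical axis) against MACS score on a log scale (horizontal axis), for the regions of the Ccnd1 window (points) and the whole list (grey line), in 1 panel per list. The median scores of the window are 67.8, 82.6 and 54.5, and those of the lists are 77.4, 81.8 and 69.4.

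Cyclin D1 acts with other D-type cyclins, their kinases and inhibitors, the retinoblastoma family and the E2F factors. Of 35 such genes, 3 were named at an annotated MLP vs. C region: Ccnd1, Ccnd2, which encodes another D-type cyclin, and E2f7, an atypical E2F that represses transcription in S phase. Of 23154 protein-coding genes in RefSeq, 680 (2.94%) were named at such a region by the same match. The list was drawn up with Ccnd1 known to be named and with earlier results of these data known. The study's text also reports E2f7 as methylated in MLP, and its supplement lists all 3 genes. The count is therefore given as a description and is not compared with the share over all genes. The Ccnd2 region (chromosome 4, 163528183 to 163529232), which the annotation places in an intron, scored 123 in MLP vs. C, within the top 20.3%, and 158 in MLP vs. MLP-F, and overlapped no MLP-F vs. C region. The E2f7 region (chromosome 7, 49473463 to 49474025), which the annotation places upstream of its gene as it does that of Ccnd1, scored 128 in MLP vs. C, within the top 18.7%, and 50.7 in MLP vs. MLP-F, and overlapped no MLP-F vs. C region. The Ccnd2 and E2f7 regions were thus listed in the same pair of lists as those of Ccnd1 and Tpcn2, all of them drawn from the annotated regions. Of all MLP vs. C regions, 39.4% overlapped an MLP vs. MLP-F region. Of all MLP vs. MLP-F regions, 1.27% overlapped an MLP-F vs. C region. Shares over the annotated regions alone are not given here, so the named regions are not compared with these. Ccnd3, Cdk4, Cdk6, Rb1 and the other genes were not named at an annotated region of either list under their symbols or synonyms, which does not show that the lists hold none near them.

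On the RefSeq assembly GRCr8, Ccnd1 lies between Lto1 and Smim38, with Tpcn2 next after Smim38. On the side of Lto1 follow Fgf19, a gut hormone that restrains bile acid synthesis in liver and is called Fgf15 in the older rat annotation, the growth factor genes Fgf4 and Fgf3, and Ano1, a chloride channel. On the side of Tpcn2 follow Mrgprf, Mrgprd, Ighmbp2, Mrpl21 and Cpt1a, which encodes the liver enzyme that commits fatty acids to mitochondrial oxidation. Of 15 genes listed for the neighbourhood, 14 matched this assembly, and only Tpcn2, known to be named when the list was drawn up, was named at an annotated region. Their positions on rn4 were not used here, so the unannotated regions of the window were assigned to no gene, and no sequence of the regions is shown.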

How the data were processed

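MBD-seq measured DNA methylation in 1 pooled liver library per diet. Bowtie was used by the authors to align the read pairs to rn4 with a single alignment kept for each, and MACS to call regions on every pair of libraries at a p cut-off. CASAVA also appears in the submitters' processing notes. Tool versions were not given in the sources used here. A deposited region's score is 10 times the −log10 of its MACS p. Regions lower in the first library of a pair were not analysed here.

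Starts were converted to 1-based positions. Regions overlapping the window by at least 1 bp were taken, ranked by score within their own list (ties share the last place), compared by overlap and merged into loci. The functions for overlaps and windows were tested on simulated data. Gene names and places came from the study's annotation, matched by start and end (1183 of 1183 found), and gene order from RefSeq. Listed genes were matched to its names by RefSeq symbol or synonym, without an ending _RAT, so a gene under a protein accession was missed. The regions described are the annotated ones and their overlaps, the 5 highest of each list in the window, the nearest neighbours of the Ccnd1 region and loci in several lists. The other regions given, such as those of the run and of the far end, were picked with their values in view. The locus, rule and gene lists were chosen with earlier results of these data known. No test was made, and alternatives are in the closing section. Wilson intervals treat regions as independent, though neighbours share a chromosome and a library. The software was Python 3.11.15 with SciPy 1.17.1, pandas 2.3.3 and numpy 2.4.6.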

Additional observations from a re-analysis of the deposited data

How the results depend on the processing

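Of 26 alternatives, 12 left the value about where it was and 14 moved it. Counts of regions depend directly on the width of the window and on a score cut. Their moves were largely set in advance, so this tally is no measure of stability. With scores of at least 100 only, the window held 3 MLP vs. C, 9 MLP vs. MLP-F and 2 MLP-F vs. C regions, and of the MLP vs. C regions 1, that of Ccnd1, overlapped an MLP vs. MLP-F region and 0 an MLP-F vs. C region. The percent of windows with fewer regions was then 38.4% for MLP vs. C, 55.4% for MLP-F vs. C and still 89.4% for MLP vs. MLP-F, so the density of MLP vs. C regions at the locus rests on those with lower scores. With a window of 500 kb around the same centre the counts were 10, 9 and 2, and with one of 2000 kb they were 40, 47 and 19. Against windows of chromosome 1 alone, the percent for MLP-F vs. C was 40.2%. A reciprocal overlap of 50% changed neither count of overlaps, and a distance of 1 kb gave 9 and 4 overlaps and 37 loci, of which the one at the far end then joined all 3 lists. No paired analysis was possible because each group has 1 library, and no replicate could be left out. The lists give no depth, so what depth limits was not measured.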
